A study of Mus musculus with 217 samples.

Results

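The neurotrophin system was followed through 6 genes of the 54532 listed in both count tables: the ligands *Bdnf* and *Ntf3*, the tyrosine kinase receptors *Ntrk2* (TrkB) and *Ntrk3* (TrkC), the pan-neurotrophin receptor *Ngfr* (p75NTR) and the sorting receptor *Sort1* (sortilin). The genes were chosen by name, and all 6 were matched by Ensembl identifier and had counts in every tissue and age. RNA-seq had been run on striatum and cortex of LacQ140 mice, a model of Huntington disease in which the mutant allele can be switched, at 6 and 12 months of age, and 217 libraries were analysed.

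The mice were of genotype Hdh(LacO-140Q/+), with 1 *Htt* allele carrying the expanded repeat and Lac operator sequences, or Hdh(LacO-+/+), called WT. Every mouse, WT included, carried the β-actin-LacIR transgene, which puts the Lac repressor under a ubiquitous promoter, on a C57BL/6 background. IPTG releases the repressor from the operators, so m*Htt* was expressed while IPTG was given. WT received no IPTG and WT + IPTG received it from E5. LacQ140 mice received IPTG from E5 throughout and expressed m*Htt*. LacQ140_A mice never received it, so that m*Htt* was lowered from conception, and LacQ140_2M and LacQ140_8M mice had it withdrawn at 2 and 8 months. LacQ140_8M was collected at 12 months only. Groups held 10 mice (5 female, 5 male), except that WT, LacQ140 and LacQ140_8M held 9 in the 12-month striatum (4 female, 5 male). Mice are named by sex and number, so that M2 is the male numbered 2 of its group. Striatum and cortex came from the same mice. The labels give the 6-month samples as batch 1 and the 12-month samples as batch 2, so age and batch cannot be told apart, and levels were compared only within an age.

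Neurotrophins are secreted as precursors and cleaved to mature dimers. Mature BDNF signals through TrkB and NT-3 mainly through TrkC, and both receptors pass the signal to the MAP kinase, PI3 kinase-AKT and phospholipase C pathways. The precursors bind p75NTR together with a sortilin family receptor, and sortilin also sorts the BDNF precursor inside neurons. Striatal neurons make little BDNF themselves and receive it along the axons of cortical neurons, a supply line long studied in Huntington disease. p75NTR marks cholinergic neurons of the basal forebrain, and truncated TrkB is abundant in astrocytes.

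In GRCm38, *Bdnf* (ENSMUSG00000048482) lies on the plus strand at chr2:109674700-109727007, and its transcripts start from many separate 5′ exons. *Ntf3* (ENSMUSG00000049107) lies on the minus strand at chr6:126101412-126166910, and *Ngfr* (ENSMUSG00000000120) on the minus strand at chr11:95568818-95587735. *Ntrk2* (ENSMUSG00000055254) covers chr13:58806569-59133970 on the plus strand, *Ntrk3* (ENSMUSG00000059146) covers chr7:78175959-78738012 on the minus strand, and *Sort1* (ENSMUSG00000068747) covers chr3:108284082-108361511 on the plus strand. Other annotated genes, some of them antisense, overlap *Bdnf*, *Ntrk2*, *Ntrk3* and *Sort1*, and none overlaps *Ntf3* or *Ngfr*. Whether strand was used in counting is not given in the sources used here, so reads of an overlapping gene could not be separated from those of the named one.

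Promoter windows were taken from RefSeq (GRCm38.p6) for 11 transcript starts of *Bdnf* (7 starts), *Ntf3*, *Ngfr* and *Ntrk2*. A pair is shown, because *Bdnf* is the ligand that the activity-regulated factor CREB is known to act on and *Homer1* is a BDNF-induced gene that was called lower in LacQ140 than in WT + IPTG in both tissues at both ages. Each line holds the 250 bases before a start, 5′ to 3′ on the plus strand, at chr2:109692186-109692435 for *Bdnf* and chr13:93303507-93303756 for *Homer1*. The capitals mark a variant of the cAMP response element, TCACGTCA, written in *Homer1* as its reverse complement.

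Bdnf: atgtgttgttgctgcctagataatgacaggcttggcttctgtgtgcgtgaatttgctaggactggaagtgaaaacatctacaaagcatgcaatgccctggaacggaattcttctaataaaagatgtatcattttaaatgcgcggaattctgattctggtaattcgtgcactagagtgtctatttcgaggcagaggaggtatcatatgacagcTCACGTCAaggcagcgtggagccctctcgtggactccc

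Homer1: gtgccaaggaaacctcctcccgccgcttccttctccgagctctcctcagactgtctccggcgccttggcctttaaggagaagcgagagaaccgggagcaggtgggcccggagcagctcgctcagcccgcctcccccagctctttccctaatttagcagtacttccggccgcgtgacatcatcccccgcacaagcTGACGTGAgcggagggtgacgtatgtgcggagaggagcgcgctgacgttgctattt

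The element begins 38 bases before the start in *Bdnf* and 56 bases before it in *Homer1*. Searched on both strands in windows from 250 bases before to 50 bases after the start, TCACGTCA was held by 0.441% of 32851 windows, by 1 of the 11 windows of these genes, and by 1 of 9 windows of the BDNF-induced genes, that of *Homer1*. The full palindrome TGACGTCA was held by 1.79% of all windows, by 0 of the 11 and by 0 of the 9. The shorter string TGACG, which overlaps both, was held by 20.8% of all windows and by 1 of the 11. It was in 6 of the 9 windows of the BDNF-induced genes, of *Egr2*, *Fos*, *Homer1* and *Nr4a1*. Of the letters of the REST element, TCAGCACC was in 1.65% of all windows and in none of the 11, GGACAG was in 22.2% and in 1 *Bdnf* window, and AGCACC was in 16.2% and in 2 windows, of *Bdnf* and *Ntf3*. The E-box CACGTG was in 7.15% of windows and in 1 window, of *Ntf3*, and the Sp1 string GGGCGG was in 35.7% and in 6 windows. Other strings searched were GCGTGGGCG, GCGGGGGCG, TGACTCA and the serum response element, with no match in the 11 windows, and GGGGCGGGG, in 2 *Bdnf* windows. A match describes the letters of a window and says nothing of what binds there.

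Summed counts per library ran from 33292057 to 68038831. Levels below are CPM scaled by TMM factors, and a fold change of a fit is on the log2 scale with its standard error (SE). Called genes passed an adjusted p-value of 0.05 in edgeR, corrected over all genes by Benjamini-Hochberg, and a fold of 1.2, and "rose" or "fell" is written only of called genes. Reads of both *Htt* alleles are summed in the tables. *Htt* ran from 125.1 to 162.7 CPM in the 12-month WT + IPTG striatum, from 96.7 to 124 in LacQ140, from 71.4 to 117 in LacQ140_A, from 85.1 to 119 in LacQ140_2M and from 93.1 to 120 in LacQ140_8M. Against LacQ140 there, it differed by -0.25 in LacQ140_A (adjusted p = 0.0490), -0.15 in LacQ140_2M (adjusted p = 0.559) and 0.00 in LacQ140_8M (adjusted p = 1), with none called. In the 12-month cortex the differences were -0.49, -0.43 and -0.41 (adjusted p = 0.186, 0.485 and 1), also not called. It was called lower in LacQ140 than in WT + IPTG in the 12-month striatum (log2 fold change -0.40) and the 6-month cortex (-0.36), and was not called in the 6-month striatum (-0.12) or the 12-month cortex (-0.14). Spiny neuron markers summed to 8477 to 9715 CPM in the 12-month WT striatum and 212.1 to 442.9 CPM in the cortex, as the tissue labels say. The 12-month striatum of LacQ140 M2 held 286 CPM of *Slc17a7*, the vesicular glutamate transporter of cortical neurons, against a median of 12.3 over the 57 libraries, so striatal ligand values are given with and without it.

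The ligands were cortical and *Ngfr* was striatal. In WT mice, *Bdnf* was lower in striatum than in cortex by a log2 difference of -5.33 (SE 0.217) at 6 months and -5.34 (SE 0.308) at 12 months. *Ntf3* was lower in striatum by -3.35 (SE 0.195) and -3.78 (SE 0.287). *Ngfr* was higher in striatum by 2.75 (SE 0.167) and 4.10 (SE 0.182). In the fit with each mouse as a block, 5 of the 6 genes were called between the tissues at 6 months, where 28.6% of all genes were called, and 6 of 6 at 12 months, where 44.1% were.

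The kinase receptors and *Sort1* were abundant in both tissues. At 6 months *Ntrk2* was lower in striatum than in cortex (-0.35, SE 0.0426), *Ntrk3* was higher (0.47, SE 0.0868) and *Sort1* was not called (-0.17, SE 0.0754, adjusted p = 0.0676). At 12 months all 3 were higher in striatum, by 1.29 (SE 0.110), 1.80 (SE 0.0906) and 1.98 (SE 0.136). The 12-month cortex libraries also differed from the others in how level fell with transcript length. The slope of log2 CPM on log2 transcript length ran from -0.519 to -0.263 there, against -0.280 to -0.028 in the 6-month cortex and -0.236 to -0.056 in the 12-month striatum. Its part in the tissue difference was not tested.

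Levels were set against each other only per kilobase of exon (mean CPM per kb over WT mice, exon length as annotated). In the 6-month striatum *Sort1* stood first at 55.9 ± 7.02 (SD, n = 10), followed by *Ntrk2* at 25.7 ± 1.57. *Ngfr* at 3.98 ± 1.14 and *Ntrk3* at 3.74 ± 0.533 came next and differed by less than their spread. *Bdnf* at 0.123 ± 0.116 and *Ntf3* at 0.0907 ± 0.0420 were last, and also within their spread of each other. In the 6-month cortex the order was *Sort1* (61.9 ± 6.97), *Ntrk2* (32.3 ± 3.44), *Bdnf* (4.63 ± 1.11), *Ntrk3* (2.66 ± 0.488), *Ntf3* (0.950 ± 0.224) and *Ngfr* (0.569 ± 0.145), so that *Bdnf* stood above *Ntrk3* in cortex and far below it in striatum. The annotated exons of *Ntrk2* and *Ntrk3* sum to 19292 and 30170 bases over many isoforms, which sets their values per kilobase low.

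The first question was what expression of m*Htt* did to these genes in striatum, with IPTG in both groups. At 12 months 3 receptors fell and 1 ligand rose: *Sort1*, *Ntrk2* and *Ntrk3* were lower in LacQ140 than in WT + IPTG, and *Bdnf* was higher, a call that was lost without LacQ140 M2 (0.56, adjusted p = 0.557). That is 4 of 6 called against 9.44% of all 35386 genes tested, with 3 lower against 4.86% of all genes and 1 higher against 4.58%. In bulk tissue, fewer cells of a type and less RNA per cell cannot be told apart.

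*Sort1*, the sorting receptor, was 473, 546 and 574 CPM (lowest, median, highest) in WT + IPTG and 386, 439 and 463 CPM in LacQ140. All 9 LacQ140 libraries lay below all 10 of WT + IPTG. The fitted log2 fold change was -0.31 (SE 0.0476, adjusted p = 7.25e-07), and it stayed called, between -0.33 and -0.29, when each library of the 12-month striatum was left out in turn.

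*Ntrk3*, the receptor of NT-3, was 117, 143 and 163 CPM in WT + IPTG and 81.8, 103 and 124.7 CPM in LacQ140. The groups overlapped only between the lowest WT + IPTG and the highest LacQ140 values. Its log2 fold change of -0.49 (SE 0.0869, adjusted p = 1.49e-05) was the largest fall of the 6, and it was called with every library left out in turn (-0.53 to -0.45).

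*Ntrk2*, the receptor of BDNF, was 553, 618 and 670 CPM in WT + IPTG and 427, 511 and 574 CPM in LacQ140. The ranges met between 553 and 574 CPM. The log2 fold change was -0.28 (SE 0.0575, adjusted p = 0.000178), close to the fold of 1.2 that a call needs. Without LacQ140 F1 it was -0.26 and without LacQ140 F3 it was -0.25, and it was then no longer called, although the adjusted p-values of 0.000968 and 0.00103 stayed under the threshold. With the length slope of each library in the model it was likewise -0.25 (adjusted p = 1.66e-07) and under the fold bound.

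*Ngfr*, the low-affinity receptor, was 8.47, 15.0 and 25.3 CPM in WT + IPTG and 12.9, 14.3 and 18.3 CPM in LacQ140. The LacQ140 values lay inside the WT + IPTG range, and the log2 fold change was -0.02 (SE 0.135). The 6 markers of cholinergic neurons gave 0 calls in either direction in the same contrast.

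**Figure D1:**
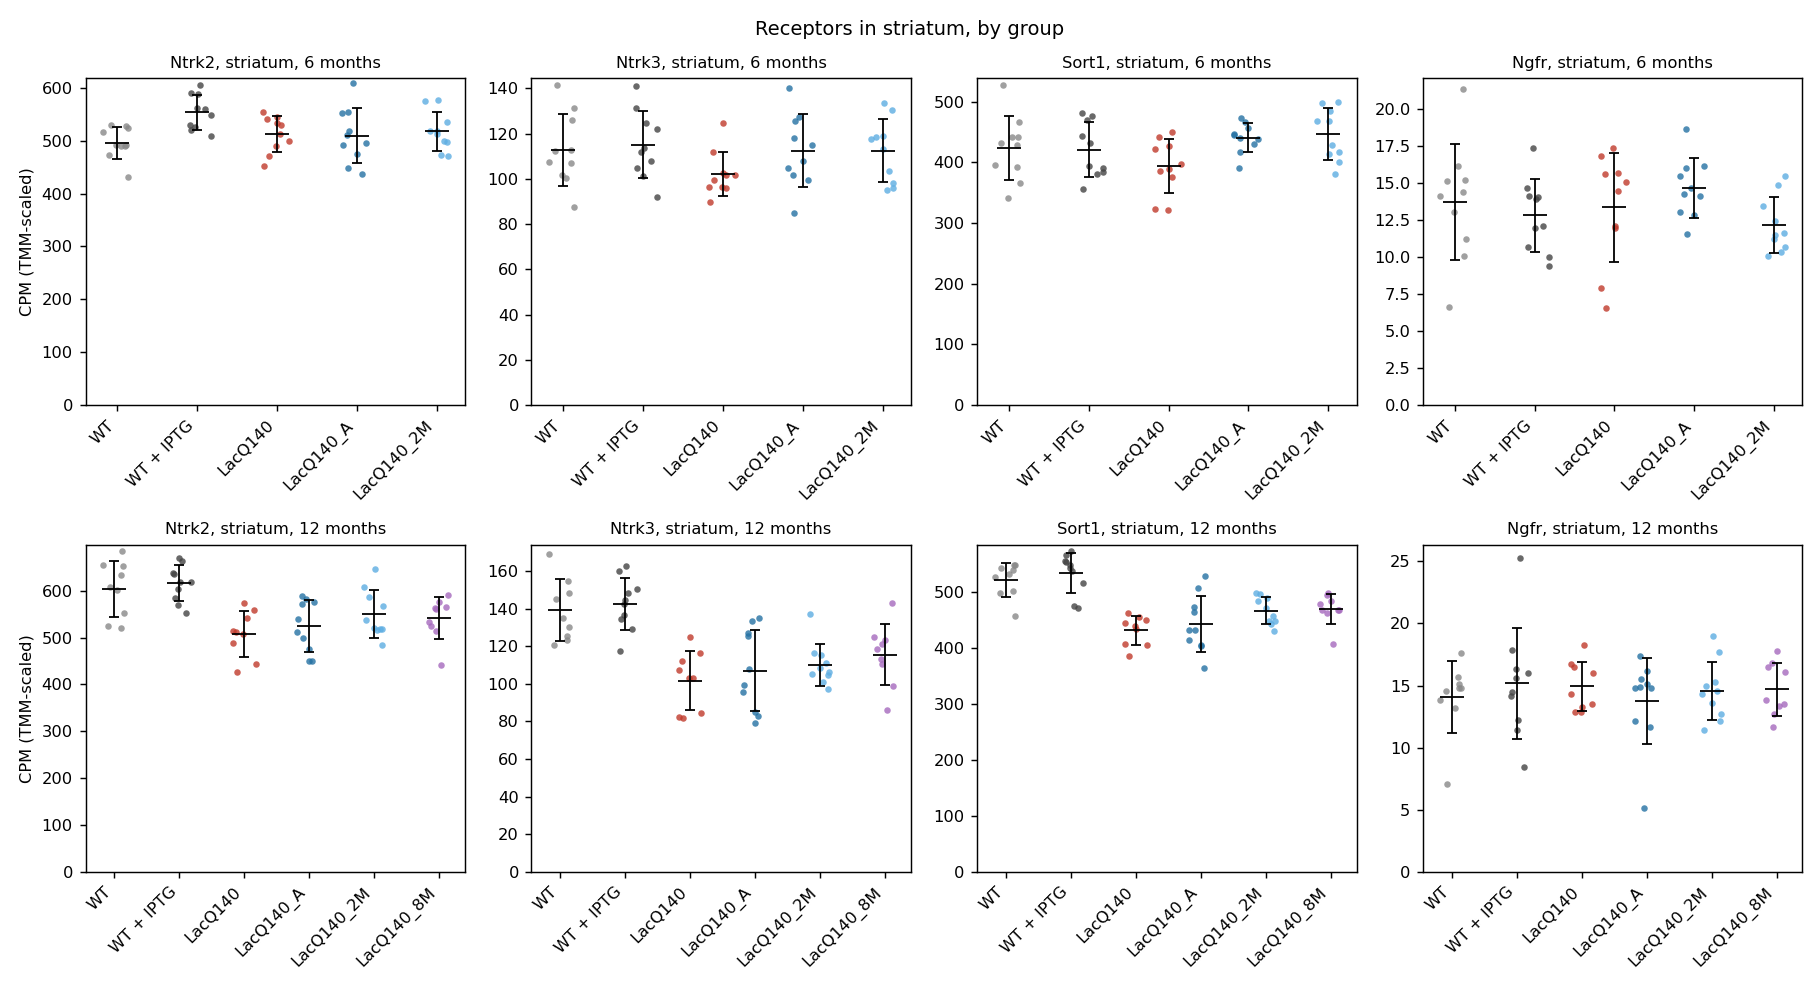
Levels of *Ntrk2*, *Ntrk3*, *Sort1* and *Ngfr* in striatum (CPM, TMM-scaled, axes from 0) at 6 months (top) and 12 months (bottom), 1 point a mouse, with the group mean (short bar) and SD (whiskers). At 12 months the LacQ140 points of *Sort1* (386 to 463) lie below all WT + IPTG points (473 to 574), and those of *Ngfr* lie within them.

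Markers of several cell types moved in the same 12-month contrast. Of 10 spiny neuron markers 0 rose and 9 fell (median log2 fold change -0.84), and their sum was 7446 to 10470 CPM in WT + IPTG and 4309 to 5397 in LacQ140. Of 10 cortical neuron markers 3 rose and 1 fell (median 0.87), with LacQ140 M2 included. Summed over 8 of them, without *Nrgn* and *Rasgrf2*, the LacQ140 mean was 70.9 CPM with that library and 35.2 without it, against 39.3 in WT + IPTG. *Slc17a7* averaged 6.96 CPM in LacQ140 without that library, against 16.6 in WT + IPTG. The 2 left out were lower in LacQ140 with that library included. *Nrgn* averaged 770 CPM against 1049 in WT + IPTG, and *Rasgrf2* averaged 36.7 against 44.7. Of 8 astrocyte markers 2 fell (median -0.18), with sums of 3010 to 3953 and 2640 to 3257 CPM. Of 7 oligodendrocyte markers 3 fell, and 1 or 2 fell in each of the microglial, vascular and choroid plexus lists, while the cholinergic, oligodendrocyte precursor and leptomeningeal lists gave none. No marker was at 0 in any striatal library. Their part in the lower receptor levels was not tested.

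The rise of striatal *Bdnf* at 12 months rested on 1 library. *Bdnf* was 0.0752, 0.363 and 1.18 CPM in WT + IPTG and 0.308, 0.680 and 6.13 CPM in LacQ140, and the second highest LacQ140 value was 1.001. The log2 fold change was 1.55 (SE 0.480, adjusted p = 0.0189) over all libraries and 0.56 (adjusted p = 0.557) without LacQ140 M2. Leaving out any other library kept the call. M2 held 6.13 CPM of *Bdnf* together with the highest *Slc17a7* of the 57 striatal libraries. Over the 8 cortical neuron markers, its sum was 356 CPM, against a LacQ140 median of 34.9 and a WT + IPTG median of 32.4. Of the 2 markers left out of that sum, *Nrgn* was 790 CPM in M2 against a LacQ140 mean of 770. *Rasgrf2* was 57.9 against 36.7. An alternative chosen after the data were seen put the 8 markers, without *Nrgn* and *Rasgrf2*, in the model. There *Bdnf* was 0.61 (adjusted p = 0.156), while *Ntrk2* (-0.28), *Ntrk3* (-0.47) and *Sort1* (-0.31) stayed called.

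*Ntf3* was near the limit of counting in striatum. It was 0.0244, 0.0899 and 0.173 CPM in the 12-month WT + IPTG and 0.0235, 0.0928 and 0.699 in LacQ140, where the highest value again came from M2. The log2 fold change of 0.98 (SE 0.456, adjusted p = 0.169) was not called. Without LacQ140 M2 and WT M1 together it was 0.26. In WT F2 the count was 0, which allows up to 0.0816 CPM by counting error alone.

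The next highest 12-month libraries and the highest 6-month libraries for striatal *Bdnf* had *Slc17a7* above its median. At 12 months WT M1 had 3.55 CPM of *Bdnf* with 78.3 CPM of *Slc17a7*, and LacQ140_8M F2 had 2.11 with 57.2, which ranked 3 and 8 among the 57 libraries for *Slc17a7*. At 6 months the 3 highest libraries of 50 for *Bdnf* were the 3 highest for *Slc17a7*: WT M5 (2.80 and 66.9), LacQ140_A F2 (2.12 and 101) and WT + IPTG M2 (2.11 and 73.3), against medians of 0.586 and 9.41.

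**Figure D2:**
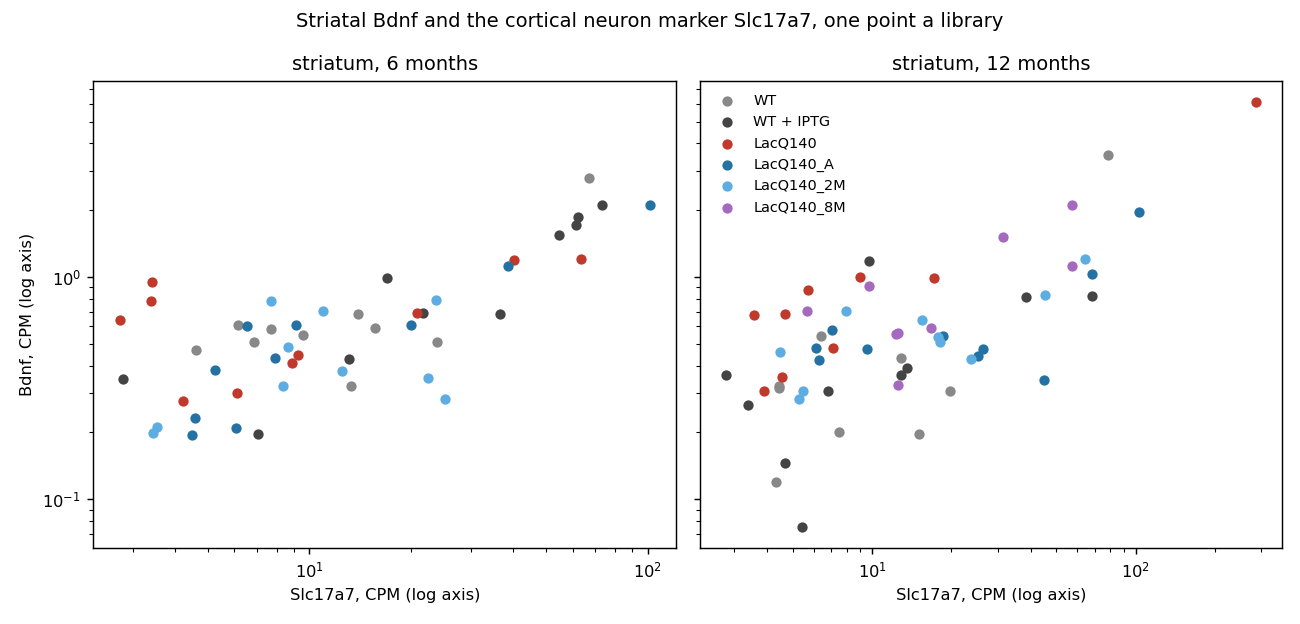
*Bdnf* against *Slc17a7* in the striatal libraries at 6 and 12 months (CPM, both axes logarithmic), 1 point a library, coloured by group. The 12-month point at 286 CPM of *Slc17a7* and 6.13 CPM of *Bdnf* is LacQ140 M2.

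At 6 months 0 of the 6 genes were called in striatum by edgeR and 0 by DESeq2, while edgeR called 7.93% of all genes (3.97% higher, 3.96% lower). At an unadjusted p under 0.05 there were 2 of the 6. *Ntrk2* was 509, 555 and 606 CPM in WT + IPTG and 452, 522 and 555 in LacQ140 (-0.11, p = 0.0243, adjusted p = 0.138). *Ntrk3* was 91.9, 113 and 141.1 CPM and 89.7, 101 and 124.5 (-0.17, p = 0.0275, adjusted p = 0.151). *Sort1* was 356, 413 and 482 CPM and 322, 393 and 450 (-0.10, adjusted p = 0.396). The groups of all 3 overlapped, with 4 of 10 LacQ140 mice below every WT + IPTG mouse for *Ntrk2*, 1 for *Ntrk3* and 2 for *Sort1*. *Ngfr* (0.06, SE 0.132), *Bdnf* (-0.60, SE 0.354) and *Ntf3* (-0.15, SE 0.309) were not called either. The spiny neuron markers already differed at this age, with 9 of 10 lower and a median of -0.42.

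Whether the LacQ140 effect differed between ages was tested as an interaction, each effect being taken within its own age and batch. In striatum 2.07% of all genes were called and 1 of the 6 genes, *Bdnf*, at 2.14 (SE 0.624, adjusted p = 0.0419). Without LacQ140 M2 it was 1.15 (adjusted p = 0.432) and no longer called, and DESeq2 called 0 of the 6 over all libraries. For the receptors the difference between 12 and 6 months was -0.21 for *Sort1* (adjusted p = 0.157), -0.32 for *Ntrk3* (adjusted p = 0.164) and -0.17 for *Ntrk2* (adjusted p = 0.279), so calls at 12 months and not at 6 do not show that these effects grew. In cortex 0 of the 6 were called by edgeR, against 0.00268% of all genes, and 0 by DESeq2, and none of the 6 had an unadjusted p under 0.05.

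In cortex, where the ligands are made, 0 of the 6 genes were called in LacQ140 against WT + IPTG at either age by edgeR and 0 by DESeq2, while edgeR called 0.881% of all genes at 6 months and 0.0899% at 12 months. At an unadjusted p under 0.05 there were 2 of the 6 at 6 months and 0 at 12 months. *Bdnf* at 6 months was 22.3, 26.9 and 31.6 CPM in WT + IPTG and 17.4, 22.5 and 26.003 CPM in LacQ140. LacQ140 values reached lower than any WT + IPTG value, but the upper part of the group overlapped with it. The log2 fold change was -0.32 (SE 0.111, p = 0.00611, adjusted p = 0.184). In a fit of these 2 groups alone it was -0.31 with an adjusted p of 0.0245, which is past both bounds, and why the fits differed was not tested. At 12 months *Bdnf* was 19.3, 21.5 and 27.1 CPM in WT + IPTG and 18.1, 20.1 and 22.9 in LacQ140 (-0.12, SE 0.086, adjusted p = 0.726).

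*Ntf3* in the 6-month cortex was 0.855, 1.35 and 1.64 CPM in WT + IPTG and 0.890, 1.51 and 1.68 in LacQ140 (0.07, SE 0.135). At 12 months it was 1.25, 1.43 and 2.05 CPM and 1.01, 1.34 and 2.32 (-0.11, SE 0.163). The groups overlapped at both ages, with 2 LacQ140 mice above the WT + IPTG range at each and 3 below it at 12 months.

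Of the cortical receptors, *Ntrk2* at 6 months was 614, 648 and 751 CPM in WT + IPTG and 498, 584 and 682 in LacQ140. Its log2 fold change of -0.19 (SE 0.0665, p = 0.00732, adjusted p = 0.202) was not called. At 12 months it was -0.05 (SE 0.131). *Ntrk3* was 0.00 (SE 0.0997) and -0.04 (SE 0.079), *Sort1* was -0.05 (SE 0.080) and 0.17 (SE 0.171), and *Ngfr* was -0.15 (SE 0.221) and 0.27 (SE 0.281). The groups of these receptors overlapped at both ages, and WT values of *Sort1* at 12 months ran from 66.4 to 211 CPM.

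**Figure D3:**
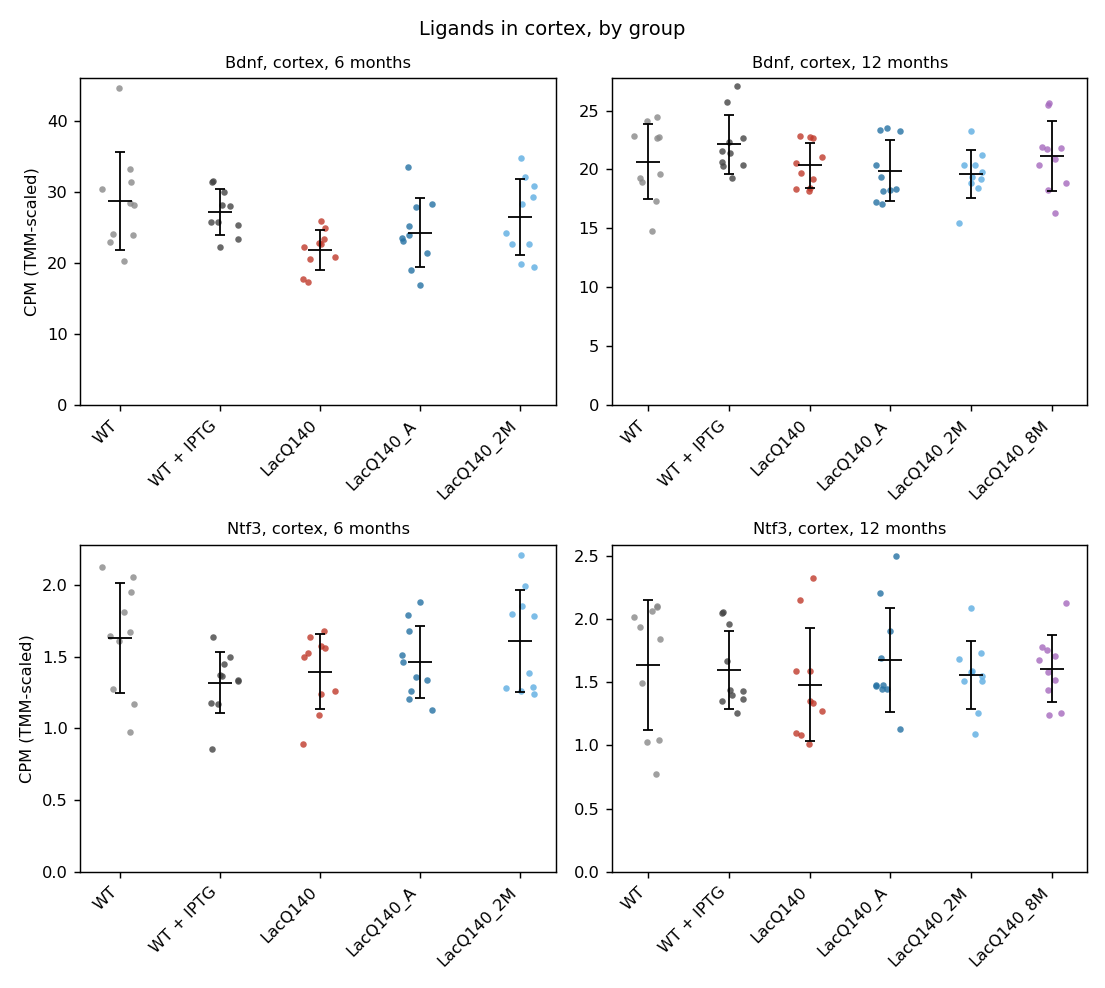
*Bdnf* (top) and *Ntf3* (bottom) in cortex at 6 and 12 months (CPM, TMM-scaled, axes from 0), 1 point a mouse, with the group mean and SD. *Bdnf* in the 6-month LacQ140 mice (median 22.5) sits in the lower part of the range of the other groups, and no shift of that size is seen at 12 months.

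The difference between tissues was tested itself. At 12 months the LacQ140 effect on *Ntrk3* was lower in striatum than in cortex by -0.49 (SE 0.122, adjusted p = 0.0105), and it was -0.51 (adjusted p = 0.0114) without LacQ140 M2. It was the 1 gene of the 6 called, against 2.82% of all genes. The 12-month cortex libraries had the steeper length slopes given above, and their part in this difference was not tested. *Sort1* had the same difference of -0.49 with a wider SE of 0.181 (adjusted p = 0.163), and *Ntrk2* had -0.29 (SE 0.149, adjusted p = 0.450). *Bdnf* at 1.33 (adjusted p = 0.147) was not called, and without LacQ140 M2 it was 0.67 (adjusted p = 0.697). With no mouse block and M2 included it was called (1.63, adjusted p = 0.00931). At 6 months 0 of the 6 were called by edgeR, against 1.12% of all genes, and none had an unadjusted p under 0.05.

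The next question was whether m*Htt* lowering moved these genes from their LacQ140 levels. In every lowering group, tissue and age 0 of the 6 genes were called by edgeR in the fit of all groups and 0 by DESeq2, and between 0 and 3 were at an unadjusted p under 0.05. In the 6-month striatum 1.88% of all genes were called for LacQ140_A and 1.26% for LacQ140_2M. In the 12-month striatum 0.91% were called for LacQ140_A, 0.608% for LacQ140_2M and 0.00565% for LacQ140_8M. In cortex the shares were 0.00834% and 0% for LacQ140_A and LacQ140_2M at 6 months, and 0.0435%, 0.0841% and 0% for LacQ140_A, LacQ140_2M and LacQ140_8M at 12 months. With shares this low, no call among 6 genes says little about them, and the sizes with their SEs are given instead. All lowering contrasts at an age and tissue share the LacQ140 mice. LacQ140 mice had IPTG at collection and the lowering groups did not, so m*Htt* lowering and absence of IPTG cannot be told apart.

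*Sort1* in the 6-month striatum was 390, 443 and 474 CPM in LacQ140_A and 380, 448 and 499 in LacQ140_2M, beside 322, 393 and 450 in LacQ140. Its log2 differences were 0.16 (SE 0.063, p = 0.0110, adjusted p = 0.195) and 0.18 (SE 0.063, p = 0.00522, adjusted p = 0.155). Both lowering groups overlapped with LacQ140. At 12 months *Sort1* was 365, 432 and 530 CPM in LacQ140_A, 430, 465 and 499 in LacQ140_2M and 408, 468 and 499 in LacQ140_8M, beside 386, 439 and 463 in LacQ140. The log2 differences were 0.04, 0.11 (p = 0.0196, adjusted p = 0.440) and 0.12 (p = 0.0146, adjusted p = 0.864). The medians of all 3 lowering groups stayed below the WT + IPTG median of 546 CPM. Untreated WT, which like them had no IPTG at collection, had a median of 532 CPM, also above all 3.

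*Ntrk2* at 12 months was 450, 525 and 590 CPM in LacQ140_A, 484, 529 and 646 in LacQ140_2M and 441, 561 and 592 in LacQ140_8M, beside 427, 511 and 574 in LacQ140. Its log2 differences were 0.05, 0.12 (p = 0.0449, adjusted p = 0.585) and 0.09 (SE 0.059). *Ntrk3* was 78.9, 104 and 135 CPM in LacQ140_A, 97.2, 107 and 137 in LacQ140_2M and 86.0, 119 and 143 in LacQ140_8M, with differences of 0.07, 0.12 and 0.18 (p = 0.0437, adjusted p = 0.864 for the last). The groups overlapped throughout. At 6 months the differences of *Ntrk2* were -0.01 and 0.01 and those of *Ntrk3* were 0.14 and 0.14, in LacQ140_A and LacQ140_2M.

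Striatal *Bdnf* at 12 months was 0.344, 0.477 and 1.96 CPM in LacQ140_A, 0.282, 0.524 and 1.21 in LacQ140_2M and 0.326, 0.703 and 2.11 in LacQ140_8M. Its log2 differences from LacQ140 were -0.97 (p = 0.0341, adjusted p = 0.409), -1.22 (p = 0.00987, adjusted p = 0.326) and -0.51 (SE 0.430). Without LacQ140 M2 the 3 differences were 0.02, -0.24 and 0.47, so the sign of the first and the last turned and the size of the second shrank when that library was left out. *Ngfr* differed from LacQ140 by -0.12, -0.04 and -0.02, each less than its SE.

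In cortex *Bdnf* at 6 months was 16.9, 23.8 and 33.5 CPM in LacQ140_A and 19.5, 26.3 and 34.8 in LacQ140_2M. The log2 differences from LacQ140 were 0.15 (SE 0.111) and 0.28 (SE 0.111, p = 0.0154, adjusted p = 0.396). At 12 months *Bdnf* differed by -0.03, -0.05 and 0.05, each within its SE of 0.086. *Ngfr*, at a median of 0.787 CPM in LacQ140 and 0.465 in LacQ140_8M in the 12-month cortex, was lower in LacQ140_8M by -0.65 at an unadjusted p of 0.0284 (adjusted p = 1). *Sort1* in LacQ140_A at 12 months was -0.32 (SE 0.171, adjusted p = 0.419), and in a fit of those 2 groups alone it was called (-0.31, adjusted p = 0.0200). With the length slope of each library in the model it was 0.08 (adjusted p = 1).

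**Figure D4:**
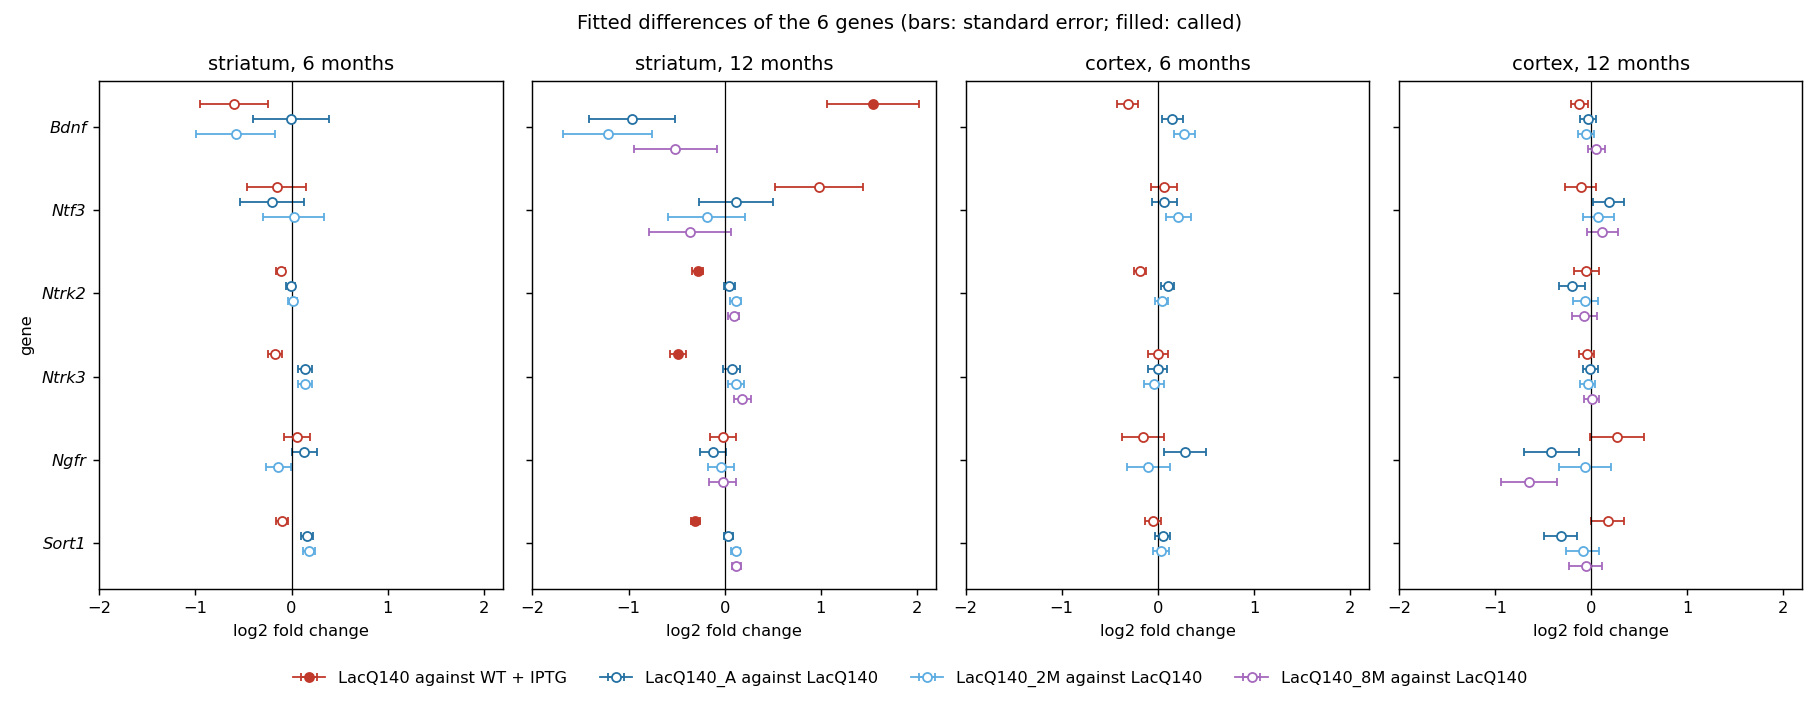
Fitted log2 fold changes of the 6 genes in LacQ140 against WT + IPTG and in each lowering group against LacQ140, by tissue and age, with SEs as bars and called values filled. The 4 filled points are all in the 12-month striatum, at -0.28 (*Ntrk2*), -0.49 (*Ntrk3*), -0.31 (*Sort1*) and 1.55 (*Bdnf*, with LacQ140 M2 included).

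Late and early withdrawal of IPTG were compared directly at 12 months. By edgeR and by DESeq2, 0 of the 6 genes were called between LacQ140_8M and LacQ140_2M in striatum, where 0.0933% of all genes were, or in cortex, where 0.0899% were. At an unadjusted p under 0.05 there were 0 and 1, the latter *Ngfr* (-0.59, SE 0.291). In striatum *Sort1* differed by 0.01 (SE 0.048), *Ntrk2* by -0.02 (SE 0.057) and *Ntrk3* by 0.07 (SE 0.086).

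LacQ140_A against WT, with no IPTG in either, asked what remained while the allele was repressed. In the 12-month striatum 1 of the 6 genes was called, against 3.15% of all genes: *Ntrk3* fell by 0.38 on the log2 scale (SE 0.0864, adjusted p = 0.00217). It was 120.6, 135 and 169 CPM in WT and 78.9, 104 and 135 in LacQ140_A, and 6 of the 10 LacQ140_A mice lay below every WT mouse. It stayed called with each library left out in turn (-0.42 to -0.33). *Sort1* at -0.24 (adjusted p = 0.000375) and *Ntrk2* at -0.20 (adjusted p = 0.0218) passed the p-value but not the fold of 1.2. *Sort1* was 458, 532 and 549 CPM in WT and 365, 432 and 530 in LacQ140_A, and *Ntrk2* was 521, 607 and 684 and 450, 525 and 590. Without LacQ140_A M2, *Sort1* was called (-0.26).

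The spiny neuron markers summed to 8477 to 9715 CPM in the 12-month WT striatum and 5381 to 7035 in LacQ140_A, and their part was not tested. At 6 months 0 of the 6 genes were called in striatum (0.91% of all genes) or cortex (0.425%), and at 12 months 0 in cortex (0.0174%), by edgeR and by DESeq2, with 0, 1 and 0 at an unadjusted p under 0.05. The 6-month values in striatum were 0.04 for *Ntrk2*, 0.00 for *Ntrk3* and 0.06 for *Sort1*. Cortical *Bdnf* at 6 months was -0.25 (p = 0.0299, adjusted p = 0.360), from 20.3, 28.4 and 44.6 CPM in WT.

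IPTG itself was checked in WT mice, and 0 of the 6 genes were called by edgeR and 0 by DESeq2 at either age in striatum (0.584% of all genes at 6 months and 0.218% at 12) or cortex (0.609% and 0%). *Ntrk2* in the 6-month striatum was 431, 492 and 530 CPM in WT and 509, 555 and 606 in WT + IPTG. That log2 difference of 0.16 (SE 0.048, p = 0.00162, adjusted p = 0.121) was larger in size than the LacQ140 difference of -0.11, with which it shares the WT + IPTG mice. *Ntf3* in the 6-month cortex was lower with IPTG by -0.30 (p = 0.0287, adjusted p = 0.342). At 12 months *Ntrk2*, *Ntrk3* and *Sort1* in striatum differed by 0.03 each.

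Cortical *Bdnf* was set against striatal *Ntrk2* of the same mouse. In the 11 groups, Pearson's r of log2(CPM + 0.5) ran from -0.216 in LacQ140_8M to 0.623 in WT at 12 months. In those 9 WT mice the exact permutation p was 0.0720, Spearman's rho was 0.717 (exact permutation p = 0.0369), and r was 0.876 over 7 mice without the 2 farthest in *Bdnf*. Adjusted over the 11 groups the lowest p-value was 0.756 for r and 0.406 for rho. The 2 farthest mice could decide the value, since r moved from 0.417 to 0.914 in the 6-month WT + IPTG and from -0.135 to 0.683 in the 6-month LacQ140 when they were left out.

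Over all mice, with the mean of each group removed, the deviations correlated by r = 0.132 at 6 months (n = 50, permutation p = 0.397) with rho = 0.125 (p = 0.411). At 12 months r was 0.288 (n = 57, permutation p = 0.0421, adjusted over both ages p = 0.0842) and rho was 0.332 (p = 0.0173, adjusted p = 0.0346). Without the 2 farthest mice r was 0.322 (n = 55, p = 0.0261). The relation did not hold within sexes: with the mean of each group and sex removed, r was 0.0242 (p = 0.898) at 12 months and -0.160 (p = 0.299) at 6 months. The sexes were compared within each group by means on the log2 scale. By these, striatal *Ntrk2* was higher in males in 6 of 6 groups at 12 months and in 5 of 5 at 6 months. Striatal *Ntrk3* was higher in males in 6 of 6 groups at 12 months. Cortical *Bdnf* was higher in males in 3 of 6 groups at 12 months and in 4 of 5 at 6 months. Mean CPM at 12 months was 577 in males against 535 in females for *Ntrk2*, and 127 against 111 for *Ntrk3*. For cortical *Bdnf* at 6 months it was 27.6 against 23.9. Counts of groups by mean CPM can differ from these, so the counts do not set the genes apart.

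**Figure D5:**
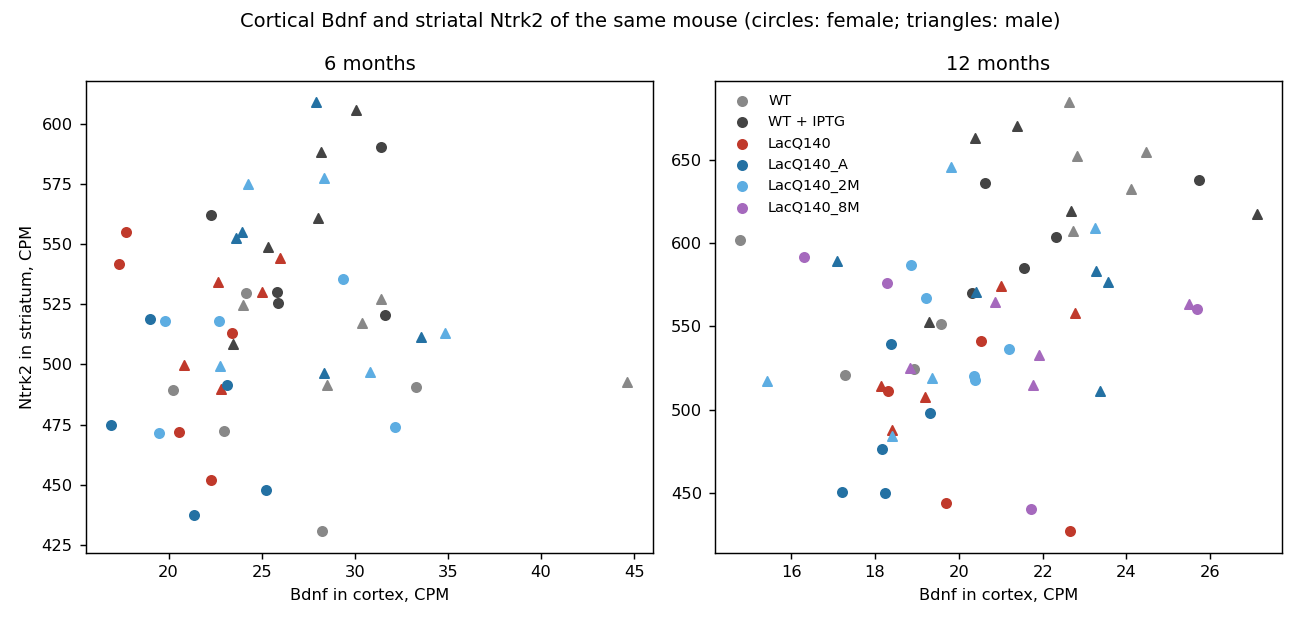
*Ntrk2* in striatum against *Bdnf* in cortex of the same mouse (CPM) at 6 and 12 months, coloured by group, with circles for females and triangles for males. At 12 months the LacQ140 groups lie low on the *Ntrk2* axis and the triangles tend to lie above the circles of their own colour, and r within single groups runs from -0.216 to 0.623. The axes do not start at 0.

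The genes around the pathway were described by lists named for their roles, 78 genes in all, every one listed in the tables. The lists were chosen with earlier results of these data known. The share over all genes takes in every gene with at least 1 count and was not matched to the lists for expression level. In the 12-month striatum 7 rose and 8 fell in LacQ140 against WT + IPTG, or 19.2% against 9.44% of all genes, with a median log2 fold change of -0.04 against 0 over all genes. At 6 months 8 rose and 5 fell (16.7% against 7.93%, median 0.07). In cortex 2 rose and 2 fell at 6 months (5.13% against 0.881%), and 0 rose and 1 fell at 12 months (1.28% against 0.0899%).

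The genes known to be induced by BDNF were the list that moved most in the 12-month striatum, where 6 of 7 fell and 0 rose (85.7% against 4.86% of all genes lower, median -0.93). *Homer1*, a postsynaptic scaffold gene, was 130, 180 and 220 CPM in WT + IPTG and 77.6, 91.3 and 117 in LacQ140, without overlap (-0.93, SE 0.105, adjusted p = 1.21e-10). *Egr2*, an immediate-early transcription factor, was 4.11, 45.6 and 75.8 CPM and 2.29, 7.95 and 14.8 (-2.29, adjusted p = 1.14e-07). *Egr1* (-0.86) and *Arc* (-0.99), which are also immediate-early genes, fell as well, and so did *Nr4a1* and *Vgf*. These genes are also known to be induced by neuronal activity of other kinds, and the immediate-early genes varied widely among mice of 1 group, *Arc* running from 89.0 to 594 CPM in WT + IPTG. In WT without IPTG the means at 12 months were 259 CPM for *Arc*, 363.15 for *Egr1*, 18.9 for *Egr2* and 129.3 for *Nr4a1*, against 411, 569.4, 42.1 and 244.1 in WT + IPTG and 207, 314, 8.60 and 113 in LacQ140. Mean *Vgf* was 234 CPM in untreated WT, 269 in WT + IPTG and 215 in LacQ140. IPTG against WT, which shares the WT + IPTG mice, gave 0 of 7 calls of its own, with 0.66 for *Arc* (adjusted p = 0.222), 0.65 for *Egr1* (adjusted p = 0.109), 1.15 for *Egr2* (adjusted p = 0.0765) and 0.92 for *Nr4a1* (adjusted p = 0.153). The same 6 fell without LacQ140 M2 and WT M1, with a list median of -0.90 and 8.81% of all genes called.

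At 6 months the list did not move 1 way. *Homer1* fell in striatum (-0.73, from 131 to 210 CPM in WT + IPTG to 78.3 to 114.8 in LacQ140) and *Fos* rose (1.005, from 11.6 to 18.8 CPM to 21.7 to 37.4). In cortex at 6 months *Homer1* fell (-0.54), and *Nr4a1* (0.63) and *Fos* (0.74) rose. The same WT + IPTG mice differed from WT: *Fos* (-0.87) and *Nr4a1* (-0.84) were called lower with IPTG in striatum, and *Fos* (-0.89), *Nr4a1* (-0.65), *Arc* (-0.78) and *Egr2* (-0.80) in cortex. *Homer1* fell also in the 12-month cortex (-0.43), where its mean was 94.1 CPM in LacQ140, 126.7 in WT + IPTG and 99.7 in untreated WT, so LacQ140 lay close to WT. WT + IPTG against WT was 0.34 there (adjusted p = 0.323).

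Among the other ligands and receptors, 1 of 9 rose and 1 fell in the 12-month striatum (22.2% against 9.44% of all genes, median -0.08). *Sorcs2*, a sortilin family receptor of the BDNF precursor, was 102, 115.5 and 125.5 CPM in WT + IPTG and 71.6, 76.9 and 86.98 in LacQ140, without overlap (-0.55, SE 0.0517, adjusted p = 1.98e-13). *Nradd*, a relative of *Ngfr*, rose by 0.54 (adjusted p = 0.00815). At 6 months *Sorcs2* ran from 53.6 to 85.4 CPM and from 53.5 to 88.3 CPM, over nearly the same range.

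Of the 14 genes for processing, sorting and transport of the precursors 2 rose and 0 fell at 12 months (median 0.00), or 14.3% against 9.44% of all genes, and 1 rose without LacQ140 M2 and WT M1, where 8.81% of all genes were called. *Hap1*, whose protein binds huntingtin and takes part in transport of BDNF vesicles, rose by 0.62 (adjusted p = 2.66e-05), from 86.1, 100 and 168 CPM to 120, 165 and 227. Untreated WT lay between, at 104, 137 and 214 CPM. *Cadps2*, which acts in dense-core vesicle release, rose by 0.53 (adjusted p = 0.0270), but not without LacQ140 M2 and WT M1. *Hap1* rose at 6 months too (0.45), as did *Mmp9* (0.59), a protease that can cleave the BDNF precursor. Mean *Mmp9* was 0.57 CPM in untreated WT, 0.44 in WT + IPTG and 0.67 in LacQ140.

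Of 32 adaptors and kinases of Trk receptors, 2 rose and 3 fell at 6 months (median 0.01) and 1 rose and 1 fell at 12 months (median -0.05). That is 15.6% against 7.93% of all genes at 6 months, and 6.25% against 9.44% at 12 months, a share below the background. *Akt2*, a kinase downstream of PI3 kinase, fell at both ages: from 121.4 to 156.1 CPM in WT + IPTG to 95.7 to 122 in LacQ140 at 6 months (-0.38, adjusted p = 5.26e-07), and from 131 to 188 CPM to 95.2 to 129, without overlap, at 12 months (-0.55, adjusted p = 5.13e-13). It fell also in the 6-month cortex (-0.39). At 6 months *Shc4*, a Trk adaptor, fell (-0.31), and *Mapk7*, the kinase ERK5 (0.33), and the adaptor *Frs3* (0.32) rose. Mean CPM in untreated WT, WT + IPTG and LacQ140 was 13.2, 11.4 and 14.4 for *Mapk7* and 19.6, 17.4 and 21.7 for *Frs3*. For *Shc4* it was 6.97, 7.44 and 6.01.

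Of 8 partners of *Ngfr*, 2 rose at each age (25% against 3.97% of all genes higher at 6 months and 4.58% at 12 months), *Bex3* (0.29 and 0.30) at both, *Zfp110* (0.32) at 6 months and *Maged1* (0.28) at 12 months, and *Ngfr* itself was not called. Of 8 regulators of *Bdnf* transcription *Rest*, which encodes a repressor of neuronal genes, was the 1 called at both ages, or 12.5% against 7.93% of all genes at 6 months and 9.44% at 12 months. *Rest* was 3.74, 4.45 and 5.25 CPM in WT + IPTG and 5.23, 6.34 and 8.73 in LacQ140 at 12 months (0.52, SE 0.0909, adjusted p = 1.2e-05), and it rose by 0.41 at 6 months.

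Against LacQ140 in the 6-month striatum, 2 of the 78 genes (2.56%) were called in LacQ140_A, where 1.88% of all genes were called, and 4 (5.13%) in LacQ140_2M, where 1.26% were. At that age *Akt2* rose (0.32) and *Pcsk1*, a convertase of precursors, fell (-0.43) in LacQ140_A. *Homer1* (0.43) and *Akt2* (0.28) rose and *Hap1* (-0.52) and *Frs3* (-0.33) fell in LacQ140_2M, each opposite in sign to its LacQ140 difference from WT + IPTG, with which these contrasts share the LacQ140 mice. IPTG differed in these contrasts too, since LacQ140 mice had it at collection and the lowering groups did not. At 12 months *Sorcs2* rose in LacQ140_2M (0.30, adjusted p = 0.000189), the 1 gene called of the 78 (1.28% against 0.608% of all genes), and 0 of 78 were called in LacQ140_A or LacQ140_8M by edgeR. Against WT, LacQ140_A had *Sorcs2* (-0.30) and *Homer1* (-0.42) lower and *Pcsk1* (0.56) higher in the 12-month striatum.

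The genes most alike to each of the 6 were those with the highest Pearson r of log2(CPM + 0.5) over the libraries of a tissue, given as the mean of r at 6 and 12 months, with points that share group, sex and library composition. *Bdnf* in cortex (50 and 60 libraries) was most like *Pcsk1* (0.766), *G3bp1* (0.721) and *Kctd20* (0.707). *Ntf3* in cortex had no close likeness, the highest being *Sybu* (0.439), *Mblac2* (0.438) and *Ccdc126* (0.432). In striatum (50 and 57 libraries) *Ntrk2* was like *Pitpnc1* (0.799) and *Plce1* (0.777), and *Ntrk3* was most like *Celf1* (0.885), *Rnf150* (0.880) and *Prkcb* (0.879). *Sort1* was most like *Atp2b2* (0.919), *Cyfip2* (0.916) and *Caln1* (0.900), and *Ngfr* was most like *Npas1* (0.623), *Gbx1* (0.585) and *Ebf4* (0.584).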

How the data were processed

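Striatum and cortex of LacQ140 and WT mice were profiled by paired-end RNA-seq on a NovaSeq instrument. The authors deposited expected counts per gene, without normalization, in 1 table per age; the submitters' notes name GRCm38, and the aligner, quantification program and strand setting are not given in the sources used here. Of 54532 genes, 54495 matched the annotation. Counts were rounded to whole numbers and tested in R 4.3.3 with edgeR 4.0.16 (TMM, quasi-likelihood F-test), genes with at least 1 count, all groups of a tissue and age in 1 fit, Benjamini-Hochberg over all genes. Called genes had an adjusted p-value under 0.05 and a fold of at least 1.2. Tissue contrasts used the mouse as a block. Scripts were tested on simulated data. Correlations used permutation tests (two-sided; exact under 10 mice, otherwise 100000 resamples, scipy 1.17.1).

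Groups came from the labels. The 6 genes, the pathway and marker lists and the alternatives were chosen with earlier results of these data known. Named pathway genes are up to 4 called genes per list with the smallest adjusted p-value in striatum, at the age with more calls, beside calls of those genes in other contrasts; others named (*Egr1*, *Vgf*, *Nr4a1*, *Fos* and *Pcsk1*, and ranges of *Sorcs2* at 6 months) were chosen after their values were seen. Most-alike genes needed a mean of at least 1 CPM at both ages. Some results that the rules for named genes would give are not reported here. Of 963 pairs of libraries within groups none was a duplicate (lowest chi-square per degree of freedom 6.229). Alternatives were DESeq2 1.42.0, other filters, scalings, covariates and groups in the fit, a replicate block, and each library left out. Intervals of zero counts (3 counts) cover counting error only.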

Additional observations from a re-analysis of the deposited data

Results flagged for a closer look

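Within groups of 9 or 10 mice, 132 sets of values (6 genes in each tissue, age and group) were searched for a single mouse that stood far from the others by Dixon's ratio, and 12 sets (9.09%) had one. Chance gives about 1 in 20 for normally distributed values, and whether these CPM values are so distributed was not tested. Of the 12 sets, 5 were *Bdnf* and 3 were *Ngfr*. The causes were not tested.

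At 12 months LacQ140 M2 had 6.13 CPM of striatal *Bdnf*, next to 1.001 in the following mouse, WT M1 had 3.55 next to 0.544, and LacQ140_A F1 had 1.96 next to 1.03. At 6 months WT M5 had 2.80 next to 0.683, and LacQ140_A F2 had 2.12 next to 1.12. LacQ140 M2 also stood apart for *Ntf3*, with 0.699 CPM next to 0.272. *Slc17a7* in the same libraries was 286 CPM in LacQ140 M2, 78.3 in WT M1, 66.9 in WT M5 and 101 in LacQ140_A F2.

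WT M1 at 12 months was low for *Ngfr* in striatum, with 7.04 CPM next to 13.2, and so was LacQ140_A M4, with 5.11 next to 11.7. In the 6-month cortex LacQ140_A F3 was high for *Ngfr* at 4.68 CPM, next to 2.79. The remaining values that stood apart were *Ntrk3* in the 12-month striatum of LacQ140_2M M4 (137 CPM, next to 116.2), *Sort1* in that of LacQ140_8M F5 (408, next to 462 above it) and *Ntrk2* in the 12-month cortex of LacQ140 M3 (189, next to 212 above it).

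The effect of m*Htt* expression differed in size between groups by an interaction test in 2 cases. For *Ntrk3* the LacQ140 effect at 12 months differed between striatum and cortex by -0.49 on the log2 scale. For *Bdnf* the LacQ140 effect in striatum differed between 12 and 6 months by 2.14, a value that fell to 1.15 and lost its call without LacQ140 M2. DESeq2 did not call it.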

How the results depend on the processing

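The number of the 6 genes called was recomputed under each alternative that applied to a comparison (DESeq2 was not run for the contrasts between tissues), and for 1319 of 1321 refits with a library left out and for 262 of the other refits, all but 9, the count or correlation stayed within 1.5 times and on its side of the threshold. The values that moved were these. In a fit of only the groups compared, 1 gene was called in the 6-month cortex for LacQ140 against WT + IPTG (*Bdnf*, -0.31) and 1 in the 12-month cortex for LacQ140_A against LacQ140 (*Sort1*), where the fit of all groups called 0. For LacQ140_A against WT in the 12-month striatum, 1 gene was called over all libraries, 2 with all 10 cortical neuron markers in the model (1 with the 8 used above), 3 with no fold bound, and 1 to 2 with a library left out (2 without LacQ140_A M2). For the LacQ140 effect in striatum against cortex at 12 months, 2 genes were called with no mouse block. For the effect at 12 against 6 months in striatum, 0 were called by DESeq2 (*Bdnf* 2.06, adjusted p = 0.0576) and 0 without LacQ140 M2, the latter chosen after seeing the data. The correlation of cortical *Bdnf* with striatal *Ntrk2* turned to -0.160 at 6 months with sex means removed, and at 12 months it was 0.0242 with sex means removed and 0.179 with CPM not scaled by TMM. Striatal *Bdnf* in LacQ140_A against LacQ140 at 12 months was -0.97 over all libraries, lay between -1.31 (without LacQ140_A F1) and 0.018 (without LacQ140 M2) with a library left out, and was 0.022 without M2 and WT M1 together. For single genes with an unadjusted p under 0.05, 1421 of 1427 refits with a library left out and 345 of 356 others kept direction and side.

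Same-numbered mice of different groups did not deviate together (mean r between -0.046 and 0.044 by tissue and age), so the numbers do not pair mice. With the replicate number as a block, 4 genes were called for LacQ140 against WT + IPTG in the 12-month striatum, as without it, and the block changed no other count of called genes. Striatal *Ntf3* lay under 1 CPM in every library, so small differences in it were not detectable at this depth. Why these values moved was not tested.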
